A study of Onthophagus taurus with 60 samples.

Results

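In male prepupae of the dung beetle Onthophagus taurus, 17 of 21668 predicted coding transcripts were selected for higher mean levels in the epidermis of the dorsal head and of the thoracic horn than in 6 other epidermal tissues, at similar levels in both. They were selected on the measured levels themselves. Levels are CPM, the count of a transcript divided by the total count of its column times 1e+06. A transcript was a member where its head mean and its horn mean were both at least 3 CPM, both at least 1.3 times the highest mean of the 6 other tissues, and within 2-fold of each other. The height of head and horn over the other tissues is therefore a description of how the 17 were chosen, and no test of it is given.

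RNA of 8 epidermal regions was sequenced, each with 6 biological replicates of male prepupae, and no treatment or genotype is named. The regions were the dorsal head, the thoracic horn of the first thoracic segment (T1), the wing of the second thoracic segment (T2), the pupal support structures of the abdomen, 3 margins of the prothorax (carinated, anterior and posterior) and the dorso-central prothorax, called dorsal prothorax here. Wing and carinated margin were sequenced as left and right columns of the same animals, which were summed, so that 60 columns gave 48 libraries. The submitters included dorsal head and dorsal prothorax as contrast tissues with no known relation to wings.

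Horns of this genus are outgrowths of the epidermis that form in the prepupa, after the larval epidermis has detached from its cuticle. Males carry them on the head as adults, and a thoracic outgrowth forms in the pupa of this species. The dorsal head region and the thoracic horn region thus lie on different body segments, and both contribute to the sculpted surface of the pupa.

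Every head value comes from deeper libraries. Head libraries held 74.8 to 87.3 mega-counts (M), against 13.1 to 21.4 M in the tissues with single columns and 28.5 to 37.9 M in the summed wing and carinated margin. Same-numbered libraries deviated together in all 21 pairs of the 7 other tissues (r = 0.200 to 0.580 over transcripts, as a description), but not with the head (r = -0.186 to 0.0798). Wherever head values are set beside others, tissue, depth and the animals behind the libraries therefore cannot be told apart. No source used here names a batch. As the regions are bulk tissue, fewer cells of a type and less RNA per cell cannot be told apart either. The labelled tissues could not be checked against defining markers, because the gene names available were locus numbers without product names and 48 marker and list words matched 0 genes.

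Of the 17 transcripts, 10 matched a gene in the RefSeq gene table of assembly IU_Otau_3.0, each a protein-coding gene named by a locus number, and 7 matched none. No role is therefore given to any of them. The 10 genes were all different, and no 2 of them were direct neighbours. The closest, LOC111426909 and LOC111426894, had 55 genes between them.

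The selection narrowed in steps. Of the 21668 transcripts, 5539 reached 3 CPM in both tissues and 3519 of these were also within 2-fold. Level and ratio together left 28, and the 2-fold limit removed 11 of these, 5 higher in head and 6 higher in horn. Among the 17, the lower of head and horn was 1.303 to 2.93 times the next tissue, with a median of 1.49. Horn was the higher of both in 11 of the 17, and horn over head ran from 0.51 to 1.72. Just inside the ratio limit stood XM_023052624.1 at 1.303, XM_023060497.1 at 1.31 and XM_023048973.1 at 1.36. Just outside stood XM_023065039.1 at 1.28, XM_023056494.1 at 1.22 and XM_023044113.1 at 1.21.

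**Figure D1:**
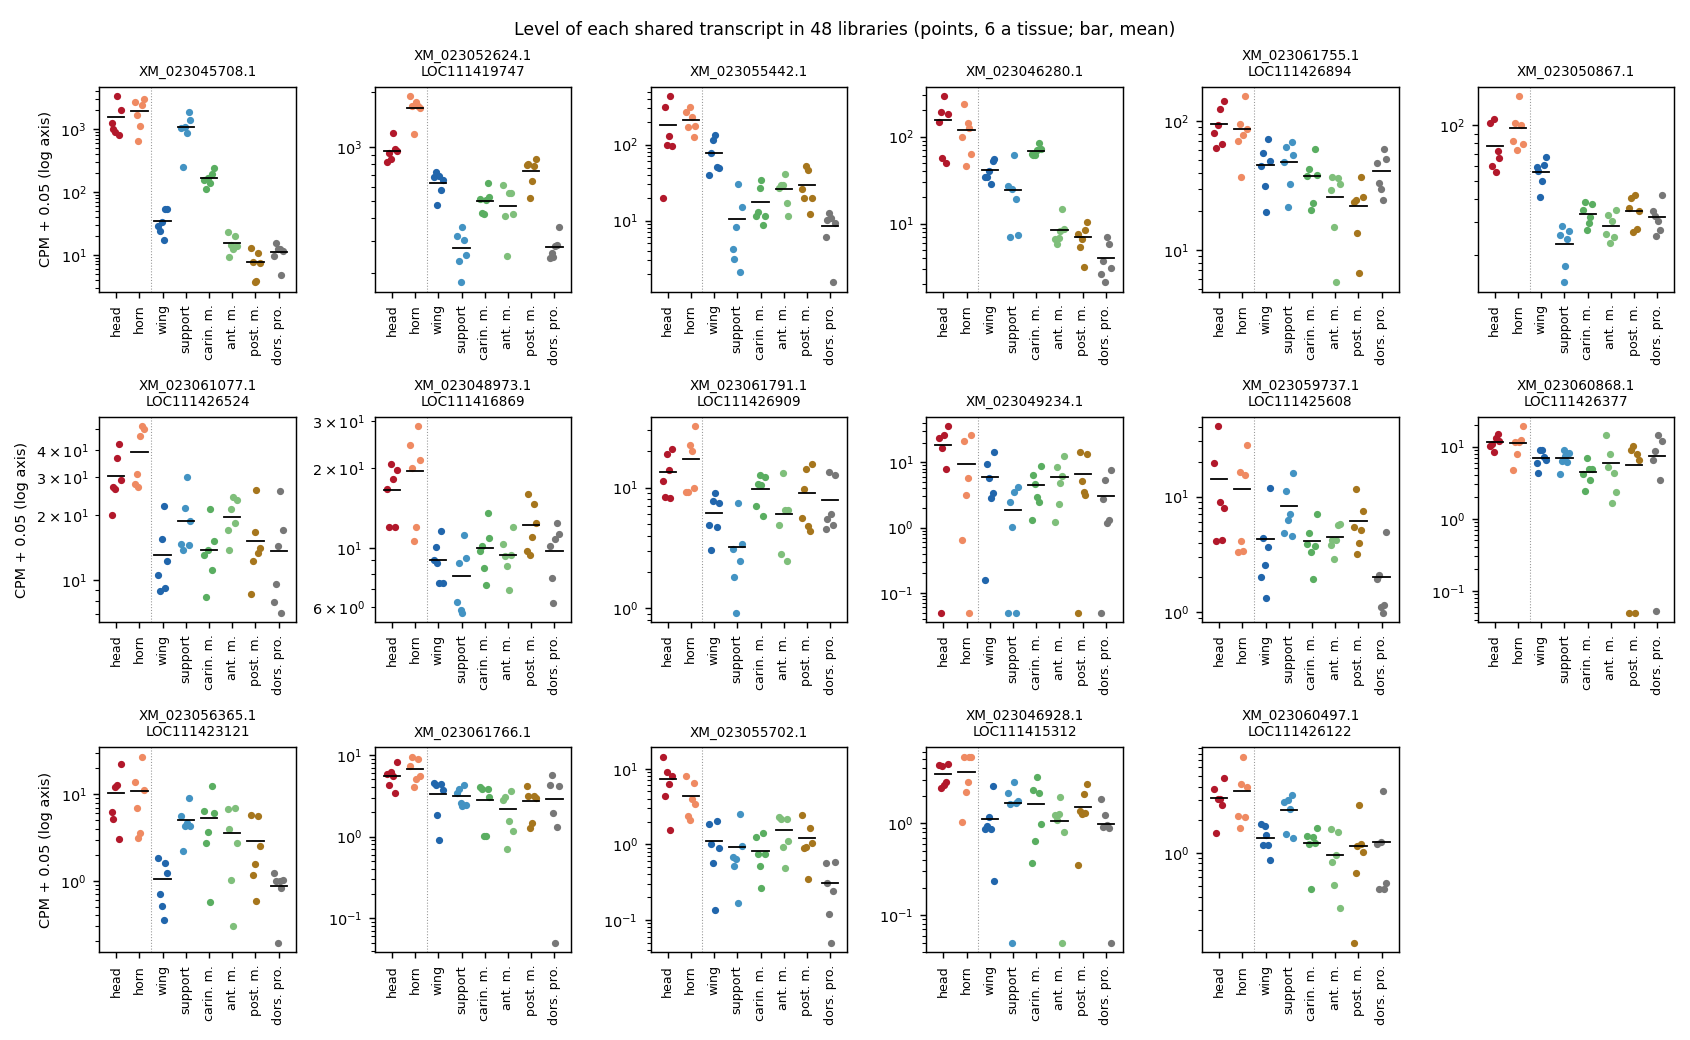
Level of each of the 17 transcripts in 48 libraries, as CPM plus 0.05 on a log axis. Points are libraries (6 a tissue), bars are means, and the dotted line parts head and horn from the 6 other tissues. Head and horn have the highest means, as the selection required, and their points overlap those of the other tissues for every transcript.

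The tissue with the next highest mean differed from transcript to transcript: support structures for 5 of the 17, wing, carinated margin and posterior margin for 3 each, anterior margin for 2 and dorsal prothorax for 1. The first group includes XM_023045708.1, which matched no gene. It had a lowest, median and highest level of 811, 1135 and 3349 CPM in head and of 636, 2070 and 3050 CPM in horn, against 250, 1073 and 1861 CPM in support structures. Carinated margin followed at 113, 161 and 241 CPM, and the other 4 tissues stayed between 3.58 and 53.2 CPM. Its libraries thus spanned head, horn and support structures at overlapping levels, with 3 horn and 2 head libraries above every other one. Among the 6 other tissues the highest mean was 142 times the lowest, the widest such range of the 17, whose smallest was 1.496.

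The same next tissue was seen for XM_023061755.1 of LOC111426894. Its levels were 62.0, 87.2 and 143 CPM in head and 37.0, 82.6 and 156 CPM in horn, against 21.4, 51.6 and 68.8 CPM in support structures. Head numbers 2 and 5 and horn number 3 lay within the support range, and 4 libraries each of head and horn lay above all 36 others. XM_023059737.1 of LOC111425608 had 4.04, 8.35 and 40.3 CPM in head and 3.27, 9.62 and 27.7 CPM in horn, against 4.51, 6.60 and 15.9 CPM in support structures. A single head library, number 3, was far above the other head libraries, so the head mean of 14.1 ± 14.0 CPM (SD, n = 6) exceeds its median. The remaining pair lay near the 3 CPM limit: XM_023046928.1 of LOC111415312 averaged 3.41 ± 0.924 CPM in head and 3.604 ± 1.89 CPM in horn, against 1.63 ± 0.910 CPM in support structures (SD, n = 6 each). XM_023060497.1 of LOC111426122 averaged 3.11 ± 1.10 CPM in head and 3.57 ± 2.18 CPM in horn, against 2.38 ± 0.826 CPM in support structures (SD, n = 6 each).

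Wing came next for XM_023055442.1, XM_023050867.1 and XM_023061766.1, none of which matched a gene. XM_023055442.1 had 19.8, 115 and 434 CPM in head and 126, 205 and 309 CPM in horn, against 40.3, 64.1 and 134 CPM in wing. Head number 1 lay below every wing library, and the head libraries spanned more than those of any other tissue. In horn, 5 of 6 libraries were above all 36 libraries of the 6 other tissues. XM_023050867.1 varied less, with 55.6, 69.4 and 108 CPM in head and 73.3, 91.5 and 143 CPM in horn, against 40.9, 57.8 and 67.5 CPM in wing and 14.2 to 42.2 CPM in the other 5 tissues. All 6 horn libraries and 3 of 6 head libraries exceeded every other library. XM_023061766.1 averaged 5.53 ± 1.64 CPM in head and 6.65 ± 2.21 CPM in horn, against 3.23 ± 1.53 CPM in wing (SD, n = 6 each).

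A margin of the prothorax came next for 8 transcripts. XM_023052624.1 of LOC111419747 had 827, 935 and 1184 CPM in head and 1174, 1683 and 1906 CPM in horn, against 521, 783 and 850 CPM in posterior margin. Every horn library and 5 of 6 head libraries were above all 36 others. Support structures and dorsal prothorax were lowest, at 177 to 359 CPM and 242 to 357 CPM.

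XM_023046280.1, with no gene, had 49.8, 165 and 291 CPM in head and 45.6, 112 and 237 CPM in horn, against 61.01, 65.96 and 84.2 CPM in carinated margin. The carinated libraries were close to each other (68.6 ± 9.01 CPM, SD, n = 6), while 2 head libraries and 1 horn library lay below all of them. XM_023056365.1 of LOC111423121 had 3.01, 9.10 and 22.1 CPM in head and 3.05, 9.03 and 27.2 CPM in horn, against 0.513, 4.84 and 12.5 CPM in carinated margin. Wing and dorsal prothorax held the least of it, with means of 0.987 ± 0.608 and 0.824 ± 0.357 CPM (SD, n = 6 each). XM_023061791.1 of LOC111426909, the last with carinated margin next, averaged 13.5 ± 5.35 CPM in head and 17.1 ± 9.39 CPM in horn, against 9.77 ± 2.83 CPM in carinated margin (SD, n = 6 each).

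XM_023055702.1 had the highest ratio of the 17, at 2.93 over anterior margin, and matched no gene. It had 1.503, 7.05 and 14.4 CPM in head and 2.06, 3.66 and 7.91 CPM in horn, against 0.443, 1.60 and 2.25 CPM in anterior margin. In dorsal prothorax no library passed 0.540 CPM, and 1 library held no count. XM_023061077.1 of LOC111426524 had 19.98, 28.0 and 42.6 CPM in head and 26.9, 38.8 and 51.5 CPM in horn, against 13.8, 19.8 and 24.3 CPM in anterior margin. Its horn libraries all lay above those of anterior margin, and head number 1 lay inside the anterior range.

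XM_023048973.1 of LOC111416869 averaged 16.5 ± 3.77 CPM in head and 19.5 ± 7.02 CPM in horn, against 12.1 ± 2.65 CPM in posterior margin (SD, n = 6 each). XM_023049234.1, with no gene, had 0, 20.01 and 35.5 CPM in head and 0, 4.43 and 26.1 CPM in horn, against 0, 4.28 and 14.2 CPM in posterior margin. Its horn median was close to that of posterior margin, and the horn mean of 9.40 CPM rested on numbers 2 and 6. It had no count in 6 of 48 libraries, where a count of 0 allows up to 0.0364 CPM in the head library and up to 0.219 CPM in the others (3 counts; counting error only). XM_023060868.1 of LOC111426377 was the only one with dorsal prothorax next, with 8.39, 11.5 and 15.2 CPM in head and 4.67, 11.5 and 19.0 CPM in horn, against 0.00284, 7.51 and 14.4 CPM in dorsal prothorax. The dorsal prothorax libraries ran from nearly no count to a level close to the highest head library, and 2 of 6 posterior margin libraries held no count.

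Means therefore hide much overlap. None of the 17 had all 12 head and horn libraries above all 36 others, a separation found in 0.00695% of the tested coding transcripts (1 of 14391). The horn alone separated in 2, XM_023052624.1 and XM_023050867.1, and the head alone in none. Both medians stood above all 36 others in 8. Counts for horn alone, head alone and the medians were not taken over all transcripts. As the members were chosen on these levels, they are a description only. Replicates of the 17 spread widely. Their median coefficient of variation (SD over mean) was 35.3% in head and 49.2% in horn, a description only, since these values chose the members. In the 6 other tissues 10 to 13 of the 17 reached a mean of 3 CPM. The median coefficient of variation of those was 31.9% to 48.2%, against 17.97% to 28.0% for all coding transcripts over 3 CPM in the same tissues. Members and all transcripts were not matched for level, and the means of these tissues also entered the rule. This too is therefore a description only.

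Scaling of the libraries changes the levels of whole tissues against each other. With TMM, which sets libraries to equal levels of most transcripts, horn factors were 0.531 to 0.639, against 0.815 to 1.42 in the 7 other tissues. Mean factors were 0.880 in head and 1.04 to 1.24 in the 6 other tissues, though single libraries of these overlapped. TMM thus raises every horn level, and on average but less so the head levels, against the 6 other tissues. The ratios of the 17 rose with it, to between 1.58 and 5.61, and their staying above 1.3 is no sign of stability. Horn was higher than head in 15 of the 17 with TMM and in 16 with the size factors of DESeq2 (RLE), against 11 on total counts. With TMM only XM_023052624.1, at 2.63 times head, left the 2-fold limit, while with RLE 8 of the 17 stood 2-fold or more apart. The direction of horn against head thus differs between total counts and TMM for 4 transcripts and between total counts and RLE for 5.

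**Figure D2:**
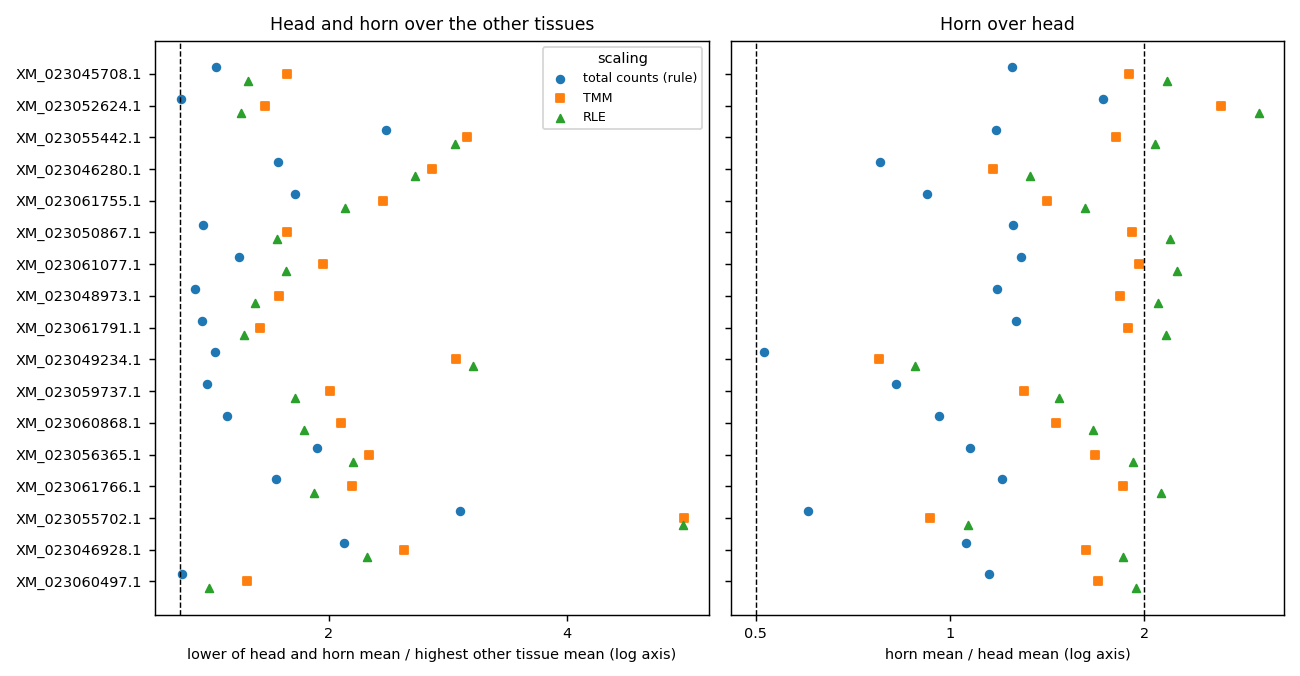
The 17 transcripts under 3 scalings: left, the lower of head and horn mean over the highest mean of the other 6 tissues; right, horn mean over head mean; both on log axes. Dashed lines mark the limits of 1.3 and of 2-fold in each direction. All ratios on the left stay at or above 1.303, while on the right 1 transcript passes 2-fold with TMM and 8 with RLE.

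The same rule was applied to all 28 pairs of tissues to see how many transcripts other pairs share. Head and horn gave 17, equal to the median of the pairs, which ran from 0 to 136, and 13 pairs gave more. Horn with support structures gave 88, head with wing 74 and head with support structures 63. On TMM-scaled CPM head and horn gave 145, against a median of 14 and a highest count of 218 for horn with support structures. Horn with dorsal prothorax gave 161, and no pair besides these gave more than head and horn. The place of head and horn among the pairs is thus set by the scaling, and it is given as a description only.

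**Figure D3:**
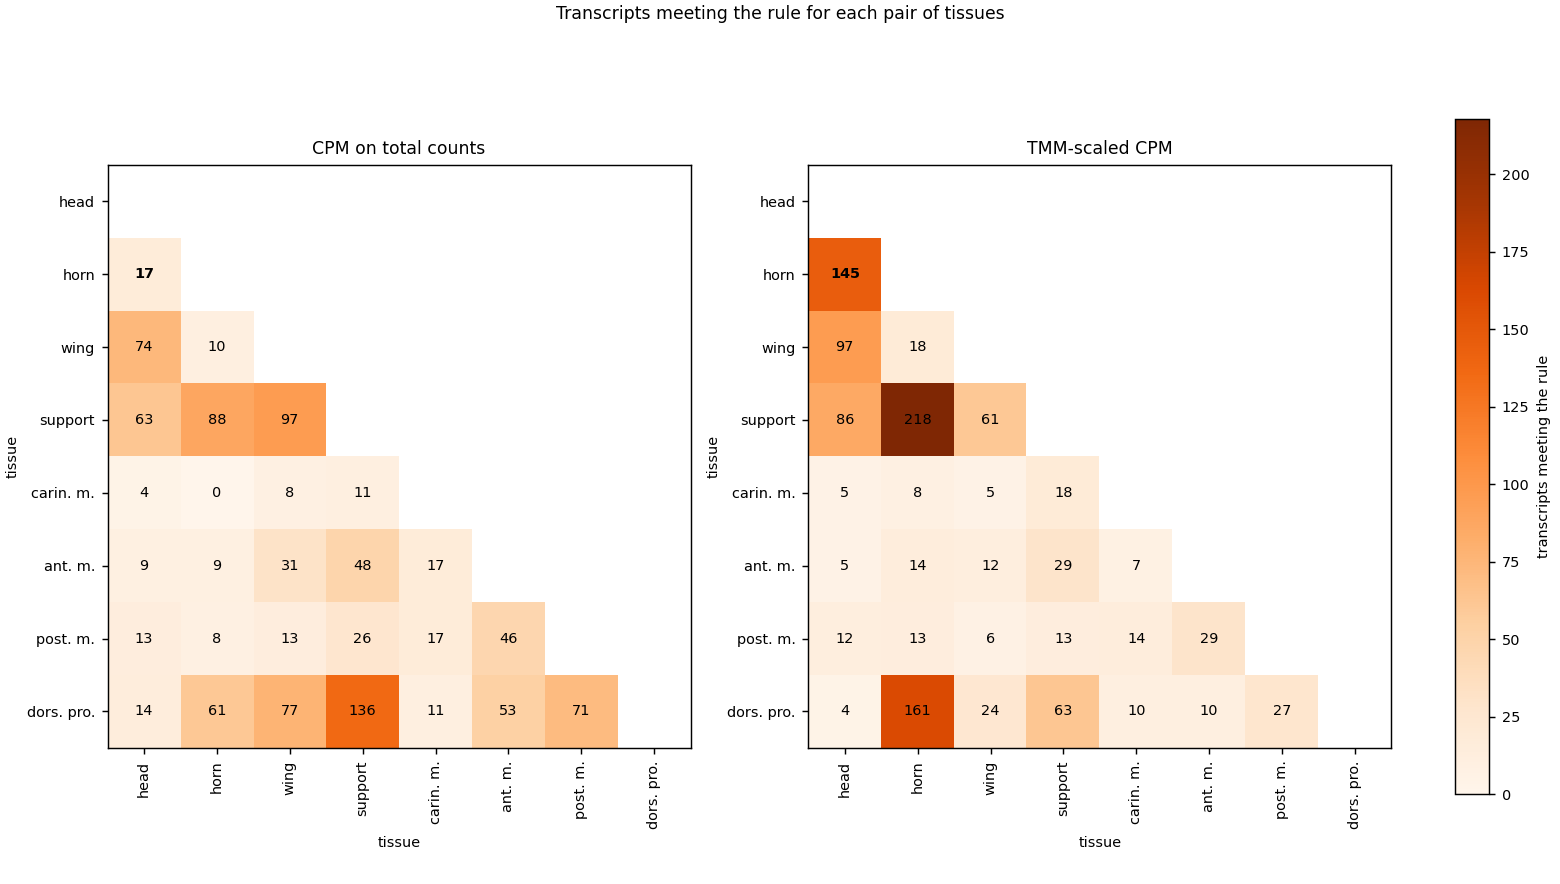
Number of transcripts meeting the rule for each pair of tissues, with CPM on total counts (left) and on TMM-scaled CPM (right). Head with horn, in bold, has 17 on the left and 145 on the right, where horn with support structures has the highest count of 218.

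Levels of the 17 were also compared among the 6 tissues outside head and horn. The rule did not compare these tissues with each other, but it capped the highest mean among them, so transcripts high in any of them were less likely to be chosen. Dorsal prothorax, the submitters' contrast tissue, was the lowest of the 6 for 6 of the 17 (35.3%), against 12.7% of the 14391 tested coding transcripts, and support structures for 5 of the 17 (29.4%), against 36.4%. Dorsal prothorax was the highest of the 6 for 1 of the 17, against 32.8% of all. The part of the selection in this low place, and in the calls above it, was not tested.

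Each of the other 5 was compared with dorsal prothorax in edgeR's quasi-likelihood test over all 48 libraries, with p-values adjusted by Benjamini-Hochberg over all 15239 transcripts tested and calls at an adjusted p under 0.05. These comparisons share the dorsal prothorax libraries, so they are not independent of each other. All 17 passed the filter on low counts, also when it was applied to the 36 libraries without head and horn. In all, 10 of the 17 were called in at least 1 of the 5 comparisons, against 45.2% of all tested transcripts, and 0 in all 5, against 2.7%. Of the 25 calls, 24 (96%) were higher than dorsal prothorax and 1 was lower, whereas 56.1% of the calls of all transcripts were higher. With libraries of one number as a replicate block and the head left out, 12 of the 17 were called in at least 1 comparison, against 57.3% of all. Of their calls 33 (91.7%) were higher and 3 lower, whereas 53.2% of the calls of all transcripts in that fit were higher.

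In wing 6 of the 17 rose and 0 fell relative to dorsal prothorax, against 14.3% of all tested transcripts higher and 11.6% lower. The median log2 fold change was 0.39 over the 17 and 0.01 over all. XM_023046280.1 averaged 40.7 ± 10.8 CPM in wing and 4.01 ± 1.92 CPM in dorsal prothorax (SD, n = 6 each), with no overlap between libraries, a log2 fold change of 3.46 ± 0.46 (SE) and an adjusted p of 1.8e-07 in edgeR. XM_023055442.1 averaged 78.0 ± 39.2 CPM in wing and 8.39 ± 4.02 CPM in dorsal prothorax (SD, n = 6 each), also without overlap, at a log2 fold change of 3.35 ± 0.58 (SE). The smallest of these changes was that of XM_023050867.1, at 0.95 ± 0.19 on the log2 scale (SE), where the highest dorsal prothorax library (42.0 CPM) passed the lowest wing library (40.9 CPM). XM_023045708.1 (1.82), XM_023052624.1 (1.32) and XM_023055702.1 (2.14) rose too. The call of XM_023055702.1 was lost without number 2, 3 or 5 and when only these 2 tissues were fitted. With the replicate block 7 were called, all higher, against 35.5% of all transcripts in either direction in that fit, the added one being XM_023059737.1 (1.11, edgeR adjusted p 0.0063).

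In support structures 6 of the 17 rose and 1 fell relative to dorsal prothorax, against 17.5% of all tested transcripts higher and 14.6% lower. The largest change of all 5 comparisons was here. XM_023045708.1 averaged 1083 ± 537 CPM in support structures and 10.9 ± 3.61 CPM in dorsal prothorax (SD, n = 6 each), with every support library at 250 CPM or more and no dorsal prothorax library over 15.6 CPM. Its log2 fold change was 6.88 ± 0.52 (SE), with an edgeR adjusted p of 4.7e-14. XM_023056365.1 (2.83), XM_023046280.1 (2.78), XM_023059737.1 (2.32), XM_023055702.1 (1.97) and XM_023061077.1 (0.68) also rose on the log2 scale.

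The 1 that fell was XM_023061791.1, which averaged 3.15 ± 2.29 CPM in support structures and 7.78 ± 4.08 CPM in dorsal prothorax (SD, n = 6 each). Its ranges overlapped, from 0.869 to 7.46 CPM in support structures and from 4.48 to 13.4 CPM in dorsal prothorax, and its log2 fold change was -1.06 ± 0.40 (SE; edgeR adjusted p 0.036). That call was lost without number 1, 2, 3 or 6 (log2 fold changes of -0.67 to -1.18 then) and with only these 2 tissues in the fit. XM_023061077.1 was lost without number 1, 2, 3, 5 or 6, with total counts, with no filter, with only these 2 tissues and with the head left out, and XM_023055702.1 without number 2, 3 or 5. With the replicate block 8 were called, against 40.9% of all transcripts in either direction, XM_023060497.1 being added (1.44, edgeR adjusted p 0.020). The number of calls fell to 4 without number 2 and to 4 without number 3, where the share of all transcripts called is not given here.

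In carinated margin 4 of the 17 rose and 0 fell relative to dorsal prothorax, against 6.56% of all tested transcripts higher and 4.04% lower. The median log2 fold change was 0.88 over the 17 and 0.03 over all. XM_023046280.1 averaged 68.6 ± 9.01 CPM in carinated margin and 4.01 ± 1.92 CPM in dorsal prothorax (SD, n = 6 each). The ranges were far apart, and the log2 fold change was 4.35 ± 0.48 (SE; edgeR adjusted p 1.3e-08). XM_023045708.1 followed closely at 4.21 ± 0.46 (SE), with 168 ± 44.9 CPM in carinated margin. XM_023056365.1 (2.95) and XM_023052624.1 (1.13) made up the rest. With the replicate block 7 of the 17 were called, all higher, against 20% of all transcripts called in either direction in that fit. The 3 added were XM_023055702.1 (1.86), XM_023059737.1 (1.42) and XM_023055442.1 (1.28), with edgeR adjusted p of 0.0033, 0.0014 and 0.011.

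In anterior margin 4 of the 17 rose and 0 fell relative to dorsal prothorax, against 5.47% of all tested transcripts higher and 4.11% lower. The largest change was that of XM_023055702.1, which averaged 1.48 ± 0.785 CPM in anterior margin and 0.262 ± 0.223 CPM in dorsal prothorax (SD, n = 6 each). Its log2 fold change was 2.68 ± 0.71 (SE; edgeR adjusted p 0.010), with 1 of 6 anterior libraries inside the dorsal prothorax range. XM_023056365.1 (2.31), XM_023055442.1 (1.79) and XM_023052624.1 (0.91) rose too. The call of XM_023055702.1 was lost without number 2, and that of XM_023055442.1 whichever number was left out and with total counts. That of XM_023056365.1 was lost without number 1, 2, 3, 5 or 6 and with only the 2 tissues compared, while that of XM_023052624.1 was kept throughout. The count was 1 without number 2, and it was 2 without number 1, 3, 5 or 6, with no share of all transcripts to set beside it. With the replicate block 8 were called, 7 higher and 1 lower, against 18.5% of all transcripts in either direction. Added higher were XM_023059737.1 (1.49), XM_023046280.1 (1.19) and XM_023061077.1 (0.72), with edgeR adjusted p of 0.0010, 0.034 and 0.0027. XM_023061755.1 was added as lower (-0.68, edgeR adjusted p 0.023).

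In posterior margin 4 of the 17 rose and 0 fell relative to dorsal prothorax, against 4.37% of all tested transcripts higher and 3.37% lower. XM_023052624.1 averaged 730 ± 123 CPM in posterior margin and 278 ± 42.5 CPM in dorsal prothorax (SD, n = 6 each), with no overlap and a log2 fold change of 1.55 ± 0.20 (SE; edgeR adjusted p 2.9e-07). The largest change was that of XM_023055702.1, at 2.32 ± 0.71 (SE), with 1.17 ± 0.739 CPM in posterior margin. XM_023055442.1 (1.99) and XM_023059737.1 (1.78) also rose. The call of XM_023055702.1 was lost without number 1, 2, 3, 5 or 6, and that of XM_023055442.1 without number 3. That of XM_023059737.1 was lost without number 1, 2, 3, 4 or 5, with total counts and with no filter. The count was 1 without number 3, and it was 2 without number 1, 2 or 5, again with no share of all transcripts beside it. With the replicate block 6 were called, 5 higher and 1 lower, against 15.9% of all transcripts in either direction. Added were XM_023056365.1 (1.52, edgeR adjusted p 0.030) and, lower, XM_023061755.1 (-0.87, edgeR adjusted p 0.0038).

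**Figure D4:**
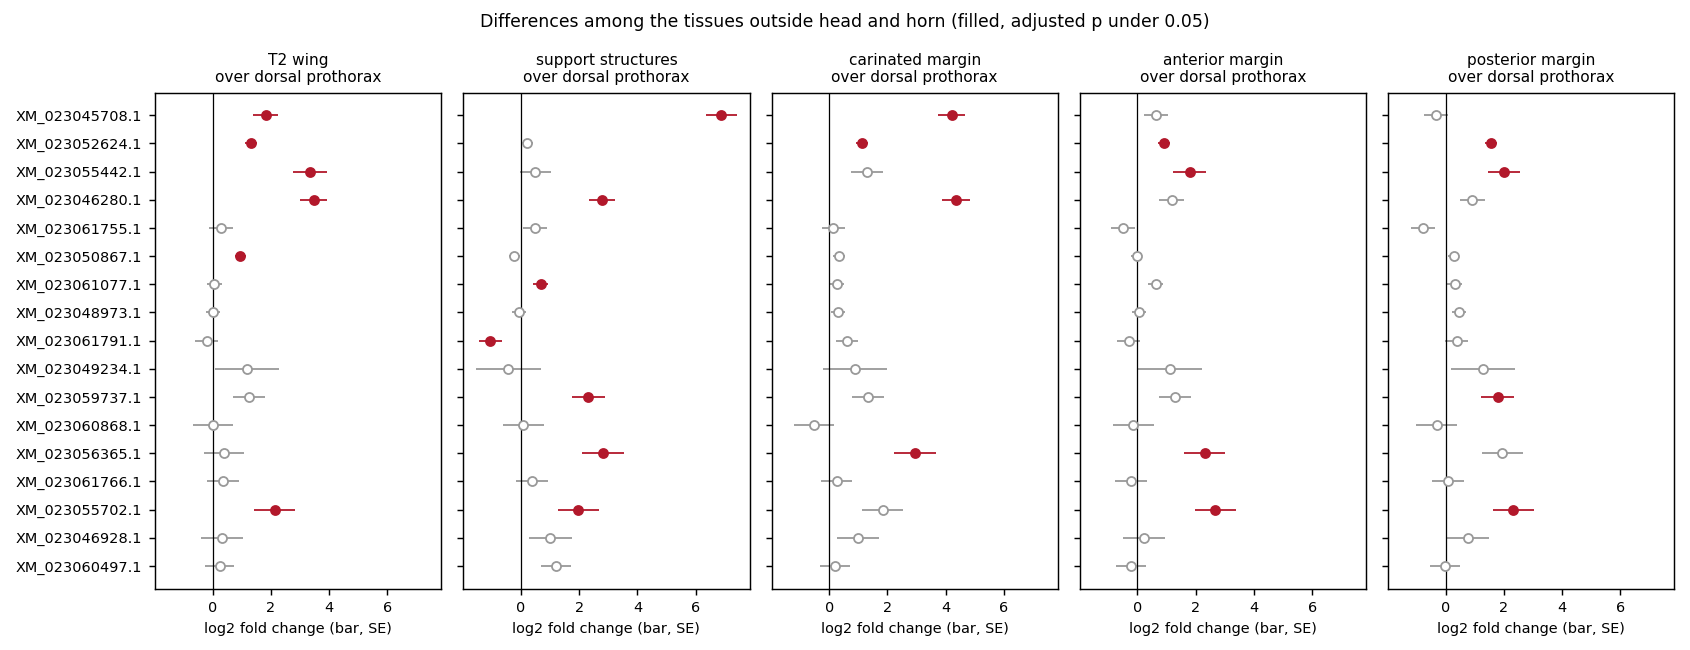
Log2 fold change (points; bars, SE) of the 17 transcripts in each of 5 tissues over dorsal prothorax, from one edgeR fit of 48 libraries. Filled points have an adjusted p under 0.05: 6, 7, 4, 4 and 4 from left to right, of which 1, XM_023061791.1 in support structures, is lower.

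Read together by transcript, the calls fell on a few. XM_023055702.1 and XM_023052624.1 were each called in 4 comparisons, and XM_023045708.1, XM_023046280.1, XM_023055442.1 and XM_023056365.1 in 3 each. Of the 25 calls, 15 were kept under every alternative run and 10 were lost under at least 1, all 10 when a replicate number was left out. The 15 include all calls of XM_023045708.1, XM_023046280.1 and XM_023052624.1. XM_023048973.1, XM_023049234.1, XM_023060868.1, XM_023061766.1, XM_023046928.1, XM_023061755.1 and XM_023060497.1 were called in none of the 5 comparisons without the block, which does not show that their levels were equal.

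Libraries of the same number also moved together for most of the 17. This test was chosen after seeing the data: in the 36 libraries of the 6 other tissues, which leaves out head and horn, edgeR asked whether the level differed between numbers once tissue was in the model. The numbers do not come with a statement that they mark one animal, but libraries of the same number deviated together in each pair of these tissues. At an adjusted p under 0.05, 11 of the 17 (64.7%) were called, against 44.8% of all 14907 transcripts tested. The lowest adjusted p in edgeR were those of XM_023061755.1 (7e-08), XM_023061077.1 (6e-07), XM_023055702.1 (5.3e-06) and XM_023059737.1 (3.9e-05).

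XM_023061755.1 was highest in number 5 of wing, support structures, carinated margin, posterior margin and dorsal prothorax, at 36.8 to 72.8 CPM, and low in numbers 3 and 4. In horn number 5 was also highest, at 156 CPM, and number 3 lowest, at 37.0 CPM, while number 4 held 78.1 CPM. XM_023061077.1 was highest in number 4 in all 6 other tissues, at 21.3 to 29.9 CPM. In horn number 4 held 46.6 CPM, below numbers 5 and 6 at 51.5 and 50.1 CPM. XM_023059737.1 was highest in number 6 in 5 of the 6 other tissues, and horn number 6 was also the highest horn library, at 27.7 CPM. XM_023049234.1 also differed widely between numbers. Numbers 2 and 6 held 20.8 and 26.1 CPM in horn and 14.2 and 13.4 CPM in posterior margin, while number 1 held at most 1.25 CPM in horn and the 6 other tissues. The head shared this order only in part. Head number 6 was the highest head library of XM_023049234.1, at 35.5 CPM, but head number 2 held no count and head number 1 held 23.5 CPM.

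**Figure D5:**
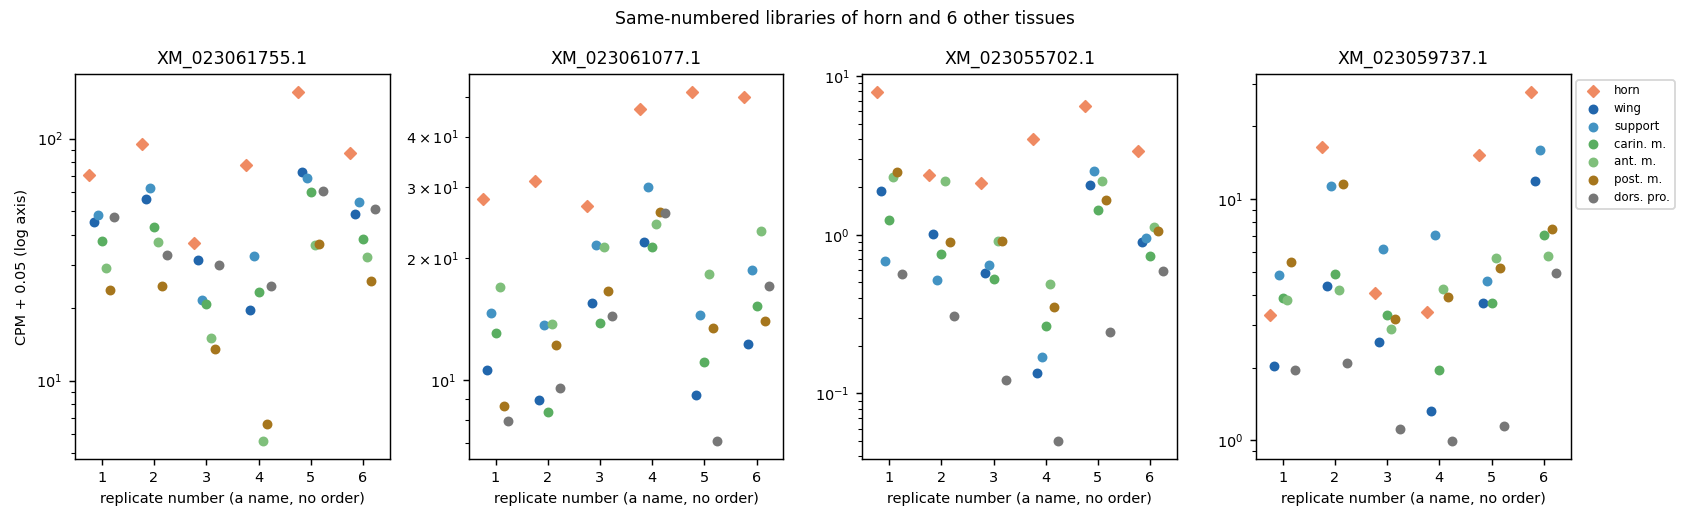
CPM plus 0.05 (log axis) of the 4 transcripts with the lowest adjusted p in the test between replicate numbers, for horn (diamonds) and the 6 other tissues (circles), by replicate number. XM_023061755.1 lies high in number 5 across tissues and XM_023061077.1 high in number 4; horn was not part of the test.

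The levels above are those of single transcripts, and expected counts share reads among the transcripts of a gene. Of the 10 genes, 3 had 1 transcript in the table (LOC111426524, LOC111425608 and LOC111423121) and 7 had more, with 19 other transcripts between them. Summed by gene, 5 of the 10 still met the rule: those 3 and LOC111416869 and LOC111426122. The other 5 did not. Of these, the totals of LOC111415312 and LOC111426909 were still highest in head and horn, at 1.22 and 1.10 times the next tissue. Of the 19 other transcripts, 8 were highest in head or horn, but only 3 had both above every other tissue. The share of all transcripts with these orders was not taken.

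In LOC111419747 the 4 transcripts together had 7159 CPM in head and 6273 CPM in horn, against 6849 CPM in wing and 5282 to 5636 CPM in the other 5 tissues. The member, XM_023052624.1, took 13.4 ± 1.46% of the gene's counts in head and 26.3 ± 3.16% in horn, against 13.5 ± 1.69% in posterior margin and 4.86 ± 1.017% in support structures (SD, n = 6 each). Its share in head was thus close to that in posterior margin, and its share in horn was the highest of the 8 tissues. Its partner XM_023052611.1, which carried most of the counts, had 5508 CPM in head and 4110 CPM in horn, the lowest of the 8 tissues. Another partner, XM_023052629.1, had 20.2 CPM in head and 28.9 CPM in horn, against 22.6 CPM in posterior margin and 2.75 CPM in support structures.

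In LOC111426909 the member's share of 4 transcripts was 60.8 ± 8.17% in head and 78.1 ± 9.81% in horn, against 31.4% to 49.1% in the 6 other tissues. The partner XM_023061790.1 was lowest in horn, at 3.44 CPM, and had 7.19 CPM in head, against 6.92 to 11.8 CPM elsewhere. LOC111426377 had nearly the same gene total in all tissues, 32.4 CPM in head and 32.5 CPM in horn, against 29.7 to 35.7 CPM in the others. There the member XM_023060868.1 took 35.6 ± 5.81% in head and 36.6 ± 16.6% in horn, against 14.98% to 25.8%. In LOC111426894 the member was 1 of 9 transcripts and took 7.39 ± 1.51% in head and 5.48 ± 1.59% in horn, against 2.71% to 4.50%. How far the split of reads between transcripts sets these shares was not tested. In LOC111415312 the partner XM_023046926.1 was also highest in head and horn, at 10.9 and 16.2 CPM. It had 10.1 CPM in support structures and 1.88 to 3.49 CPM in the other 5. At lower levels, head and horn were also highest for XM_023061793.1 of LOC111426909 (0.735 and 0.971 CPM). The same held for XM_023060496.1 of LOC111426122 (1.81 and 2.63 CPM).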

How the data were processed

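The labels' protocols name the Qiagen RNeasy Plus Micro kit for extraction and a stranded Illumina TruSeq kit for the mRNA libraries. The submitters' processing notes name Trimmomatic 0.32, Bowtie2 2.3.2, RSEM 1.3.0 and DESeq2, without a role for each. For the genome build, the annotation and the strand setting: not given in the sources used here. Expected counts per RefSeq transcript in 60 columns are what the authors deposited, and 29.7% of them were not whole (tolerance 0.001). Reads shared between transcripts or near-identical genes are divided by estimation in such counts. Columns not mapped to a sample numbered 0.

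Members and lists were chosen with earlier results of these data known. Wing and carinated columns k and k+6 were summed as one animal because their deviations correlated (r = 0.212 to 0.452). Which side each is remains unknown. Counts were rounded, filtered with filterByExpr (minimum count 10, minimum total 15) and tested with edgeR 4.0.16 (limma 3.58.1, R 4.3.3), TMM scaling and no term besides tissue. Calls were made where the Benjamini-Hochberg adjusted p was under 0.05. Replicate numbers were taken to pair the tissues other than head, since same-numbered libraries correlated at 0.200 to 0.580 in all 21 tissue pairs, so the fit with a replicate block left out the head. Each p-value between tissues sets a difference against the spread between these libraries. The fit without the block took same-numbered libraries as independent.

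In simulated counts for wing against dorsal prothorax over 15239 transcripts, 50% of 100 transcripts changed 2-fold and 85% of 100 changed 4-fold were recovered, and 6 unchanged ones were called. The changed ones were drawn from transcripts with a mean of at least 3 CPM, and libraries were simulated as independent. Recovery at lower levels, or where same-numbered libraries move together, was not tested. Alternatives were RLE size factors, total counts, no filter, only 2 tissues in the fit, the replicate block, the head left out (chosen after seeing the data), columns 1 to 6 alone, each number left out and DESeq2 1.42.0, and for the rule other thresholds, scalings and totals. Transcripts were named by level (the 10 highest means of head and horn), by ratio (the 10 highest), by nearness to the ratio limit (3 on each side) and by the largest called change in each direction of each comparison. XM_023059737.1, the partner transcripts, those left out by the 2-fold limit and other called or listed members were named after their values were seen. No sequence was printed, because the reference used here holds gene names only.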

Additional observations from a re-analysis of the deposited data

Results flagged for a closer look

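In 7 of 136 groups of 6 libraries (17 transcripts in 8 tissues), 1 library stood apart from the other 5, by a gap past Dixon's 95% critical value. Chance flags about 1 in 20 groups. The 7 belong to 5 transcripts. XM_023052624.1 was lowest in horn number 3, at 1174 CPM, with the next horn library at 1633 CPM. XM_023046280.1 was highest in support structures number 4, at 61.12 CPM (next 26.79 CPM), and in anterior margin number 5, at 14.64 CPM (next 8.647 CPM). XM_023059737.1 was highest in number 6 in 2 tissues, at 11.79 CPM in wing (next 4.302 CPM) and 4.857 CPM in dorsal prothorax (next 2.042 CPM). XM_023055702.1 was highest in support structures number 5, at 2.488 CPM (next 0.8969 CPM). XM_023060497.1 was highest in dorsal prothorax number 4, at 3.57 CPM (next 1.202 CPM).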

How the results depend on the processing

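The number of members was 17 and became 3 with a ratio of 2, 145 with TMM-scaled CPM (16 of the 17 among them), 132 with RLE-scaled CPM (9 of the 17) and 5 genes when transcripts of a gene were summed. It was 12 at 10 CPM and with tissue medians (10 shared), and 13 to 19 with a replicate number left out, of which 13 to 16 were shared. Calls fell to 4 in support structures and 2 in anterior margin when only the 2 tissues compared were fitted. With the replicate block, which pairs same-numbered libraries, and the head left out, they came to 7 in wing, 8 in support structures, 7 in carinated margin, 8 in anterior margin and 6 in posterior margin. That is 11 more than without both changes. With the head left out and no block, an alternative chosen after seeing the data, there were 24 calls, to which the block added 12 and from which it removed 0. With a number left out they ran from 5 to 6 in wing, 4 to 8 in support structures, 4 to 4 in carinated margin, 1 to 5 in anterior margin and 1 to 4 in posterior margin. The test between numbers gave 10 to 12 calls under its alternatives. For these, for the fits of 2 tissues and for those with a number left out, the share of all transcripts called is not given here. Whether calls of all transcripts changed alike was not tested. Of 347 alternative values of the 25 called fold changes none reversed, 299 stayed on their side of the threshold and 48 lost the call. The causes were not tested. XM_023055702.1 gave no value in support structures, anterior margin or posterior margin when only the tissues compared were fitted. Total-count scaling moved the median log2 fold change of all transcripts by -0.13 in wing, -0.23 in support structures, -0.26 in carinated margin, -0.09 in anterior margin and -0.16 in posterior margin. With that scaling 2 of the 17 were called lower in support structures, against 3261 of all 15239 transcripts tested.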

Other observations

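The 11 transcripts that the 2-fold limit left out had head and horn above every other tissue but apart from each other. LOC111414410 (XM_023045749.1) had 14.0 CPM in head and 5.84 CPM in horn, and at most 0.188 CPM as a mean in any other tissue. It is the 1 tested coding transcript whose 12 head and horn libraries were all above the 36 others. LOC111416804 (XM_023048906.1) had 10.5 CPM in head and 30.1 CPM in horn, against 2.50 CPM in carinated margin and at most 0.582 CPM in the other 5 tissues. LOC111428457 (XM_023063972.1) had 3761 CPM in head and 1747 CPM in horn, against 158 to 964 CPM in the others. LOC111429518 (XM_023065453.1) had 397 CPM in head and 1495 CPM in horn, against 70.9 to 193 CPM in the others.

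Among those left out, XM_023054389.1, which matched no gene, and LOC111415488 (XM_023047190.1) had like patterns, with horn highest and wing lowest. The first had 71.0 CPM in head and 1021 CPM in horn, with 0.246 CPM in wing 25.3 CPM in posterior margin and 10.5 to 39.0 CPM in the other 4. The second had 76.3 CPM in head and 859 CPM in horn, with 0.194 CPM in wing 14.0 CPM in posterior margin and 10.1 to 36.2 CPM in the other 4. Whether reads are shared between them was not tested. LOC111414747 (XM_023046184.1) was the opposite in order, with 669 CPM in head and 142 CPM in horn, against 6.33 to 97.8 CPM in the others.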
